A study of Caenorhabditis elegans with 8 samples.

Results

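The 200 probes described here were those whose signal differed most among the 4 wild-type N2 samples. They were taken from 32299 probes. Of 43603 non-control probes on the array, 33348 were well above background on all 8 arrays, and 1049 of these were dropped because their genes carry the names of certain families, among them cuticle collagens, vitellogenins, heat shock proteins, hedgehog-related proteins, histones and nuclear hormone receptors. The rest were ranked by their standard deviation (SD) over the 4 N2 columns of the deposited log2 table. Because this spread chose the probes, their N2 values are given as a description with no test, and only the *aptf-1* arrays are free of the choice. On the deposited log2 scale, the SD over N2 was 3.76 for the first probe (*T11F8.4*) and 1.27 for the last one inside (BJ784776). The first probe outside (BJ145909) also had an SD of 1.27 there, and the median over all 32299 probes was 0.23.

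The samples were hermaphrodite *Caenorhabditis elegans* embryos at the pretzel stage, in which the worm has elongated and lies coiled in its egg. Mutants carrying *aptf-1(gk794)* gave 4 samples and wild-type N2 worms gave 4, and each sample pooled about 3000 embryos picked one by one from plates with *E. coli* OP50 as food. The sample records give 21.5°C for growth, while the general methods of the study give another temperature. Total RNA of whole animals was labelled with Cy3 and hybridised to 1 Agilent array per sample, and *aptf-1* encodes an AP2 transcription factor that the sleep-active RIS neuron requires to induce sleep. All values below are log2 intensities relative to the 75th percentile of their array unless another scale is named.

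The single probe for *aptf-1* lay between -1.82 and -1.38 on the mutant arrays and between 0.25 and 0.73 on the N2 arrays, with no overlap. Arrays 1 and 2 of each genotype lay on slide 1 and arrays 3 and 4 on slide 2. The share of probes above background ranged from 79.4% to 83.1% per array, and correlations between arrays lay between 0.976 and 0.994. Of the tissue genes listed for a check of the label, all 52 probes for body wall muscle and all 35 for neurons passed the filter on dim probes. This filter asked for signal above background on 4 or more arrays. All 17 probes for oocyte and eggshell and 84 of 113 for sperm also passed, so passing alone does not mark a tissue or stage. In RNA of whole embryos, fewer cells of a type and less RNA per cell cannot be told apart.

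A few kinds of transcript in the list have well-known roles. Ribosomal RNAs form the core of the ribosome and make up most of the RNA of a cell, and they carry no long poly(A) tail. The *skr* genes encode Skp1-like adaptors that join F-box proteins to the cullin of an SCF ubiquitin ligase, which marks proteins for degradation, and BTB proteins serve as adaptors for another cullin. The *sdz* genes (SKN-1-dependent zygotic transcripts) and *vet* genes (very early transcripts) were named for transcription in young embryos, long before the pretzel stage.

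The 200 probes carried 130 different names. Of the probes, 99 were matched to 80 genes, and 101 were not matched. Of the unmatched probes, 99 bore the name of an expressed sequence tag, a database entry or the probe itself, and 2 bore MTCE.4, a sequence name that the gene table used here does not hold. Unmatched probes thus made up 50.5% of the members, against 16.3% of all 32299 probes. Ribosomal RNA probes made up 7.0% of the members and 0.0495% of all: 14 of the 16 probes for *rrn-1.1* (18S), *rrn-2.1* (5.8S) and *rrn-3.1* (26S) were members. The members were dimmer than most probes, with a median level of -4.27 against -1.53 over all. In all 29 names with several member probes (99 probes) every member probe was highest on the same N2 array, which the choice favours, and in 27 of them every member probe was also highest on the same *aptf-1* array. Another 38 probes, of 22 of the names, could have been chosen and were not. Their median N2 SD was 0.50, and 27 of the 38 were highest on the same *aptf-1* array as most member probes of their name. Over all probes, the mutant array most often highest was *aptf-1* replicate 1, for 36.8%. The 38 are not independent, since several share a name, such as 7 of *K01A2.4*.

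Each member was classed by the N2 array that lay farthest from the mean of the other 3 in the deposited table. The largest class had 69 probes with N2 replicate 1 high, followed by 46 with replicate 4 high, 41 with replicate 4 low and 32 with replicate 3 high. The remaining classes were small, with 6 probes low on replicate 3, 5 low on replicate 1 and 1 high on replicate 2. The classes with replicate 1 high and with replicate 4 low shared an order. Relative to the 75th percentile, all 110 of their probes were highest on N2 replicate 1 and lowest on N2 replicate 4. In the deposited table, 108 were highest on N2 replicate 1 and 110 lowest on N2 replicate 4. The classes were made from N2 values, which favours this order. The first principal component held 74.7% of the members' variance over the *aptf-1* arrays (60.0% over all probes) and 78% over the N2 arrays (74.0% over all probes).

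The members also varied over the *aptf-1* arrays, which had no part in choosing them. Their median SD over the 4 *aptf-1* arrays was 0.61, against 0.17 over all 32299 probes. Of the members, 141 (70.5%) lay above 0.49, the 95th percentile of the *aptf-1* SD of all probes. Members with levels between -5.13 and -2.22, the middle range of the list, had a median *aptf-1* SD of 0.61, and the 8479 probes of that range had 0.20. In that range 75% of the members and 6.97% of the probes lay above the 95th percentile. The spread was smaller than among N2 arrays, where the members were chosen for it. The SD over *aptf-1* was above that over N2 for 10 members (5.0%), against 34.7% of all probes. Some of the 10 were above it only because an outlier spot on N2 replicate 4 was left out of the N2 SD. One such probe was the highest-ranked one of *pup-2* (0.19 against 0.16). The 200 probes with the highest *aptf-1* SD held 44 of the members, which is 22% of either list.

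Much of the spread over *aptf-1* arrays came from replicate 1. The members' median deviation from the genotype mean was 0.68 on *aptf-1* replicate 1, -0.36 on replicate 2, -0.29 on replicate 3 and 0.04 on replicate 4. Without *aptf-1* replicate 1 the median SD was 0.31, and 36.5% of the members lay above the 95th percentile. *aptf-1* replicate 1 was the highest of the 4 mutant arrays for 137 members (68.5%), against 36.8% of all probes.

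The *rrn* probes showed the shared order most fully. All 14 ribosomal RNA members were highest on *aptf-1* replicate 1 among the mutants, and on N2 replicate 1 among the wild type, and all 14 were lowest on N2 replicate 4. The N2 part of this order chose them and the *aptf-1* part did not. On the deposited log2 scale, 14 were highest on *aptf-1* replicate 1 and 13 on N2 replicate 1.

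Of the 2 probes for *rrn-1.1*, the 18S RNA, the member measured 5.81, 3.27, 2.84 and 4.69 on *aptf-1* replicates 1 to 4, and 5.68, 4.93, 5.12 and 0.51 on N2 replicates 1 to 4. The N2 values were close together except for replicate 4, while the mutant arrays ranged more evenly, and the genotypes overlapped. The other *rrn-1.1* probe varied less among N2 arrays, with 7.36, 6.37, 6.71 and 6.87 on the *aptf-1* arrays and 7.17, 6.63, 6.62 and 6.47 on the N2 arrays (N2 SD 0.31), where replicate 1 was again the highest of each genotype. Among the 5 probes of *rrn-2.1*, the 5.8S RNA, the highest-ranked one measured 1.73, -0.75, -0.68 and 0.32 on the *aptf-1* arrays. The same probe measured 3.15, 0.54, 0.40 and -1.42 on the N2 arrays, so replicate 1 stood above the others in both genotypes. The highest-ranked probe of *rrn-3.1*, the 26S RNA, measured 6.94, 6.10, 5.87 and 6.64 on the *aptf-1* arrays. On the N2 arrays it measured 6.83, 6.67, 6.40 and 2.62, so that only N2 replicate 4 was low. Over the 8 member probes of *rrn-3.1* the *aptf-1* SD ran from 0.34 to 1.14.

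Ribosomal protein genes had smaller deviations than ribosomal RNA on the *aptf-1* arrays. The medians of the 256 ribosomal protein probes deviated by 0.20, -0.21, -0.04 and 0.06 on the *aptf-1* arrays and by 0.09, -0.13, -0.19 and 0.21 on the N2 arrays. For the 16 *rrn* probes the medians were 1.06, -0.68, -0.38 and 0.09 on the *aptf-1* arrays and 1.58, 0.08, 0.13 and -2.03 on the N2 arrays. On the *aptf-1* arrays the order was the same in both lists, with replicate 1 the highest and replicate 2 the lowest. On N2 replicate 4, whose values helped to choose the *rrn* probes, the medians had opposite signs. None of the ribosomal protein probes was a member. The replicate 1 arrays also had the lowest 75th percentile of intensity, 2283 for *aptf-1* and 2431 for N2, where the other arrays lay between 2725 and 3713. The part of this in the result was not tested.

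Most other probes of this order were not matched to a gene in the gene table used here. Of the 110 probes, 82 were unmatched, and 80 of these 82 were highest on *aptf-1* replicate 1. AF071390, an array name with 5 member probes, measured 1.88, -1.43, -1.73 and -0.43 on the *aptf-1* arrays at its highest-ranked probe. On the N2 arrays this probe measured 2.94, 0.04, -0.43 and -2.75, so both replicate 1 arrays stood above the rest of their genotype. Its 5 probes had an *aptf-1* SD between 1.58 and 1.67. C51668, also with 5 member probes, measured -1.86, -3.61, -3.95 and -3.01 on the *aptf-1* arrays and -0.67, -4.16, -2.64 and -5.42 on the N2 arrays. TC141781 was also highest on both replicate 1 arrays, with -3.96, -5.80, -5.27 and -5.33 on the *aptf-1* arrays and -2.31, -6.09, -4.60 and -7.59 on the N2 arrays. BJ786626 (2 probes) measured between -5.14 and -3.60 on the *aptf-1* arrays and between -7.39 and -2.50 on the N2 arrays.

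The 14 remaining probes of the order were matched to genes other than ribosomal RNA, and 10 of them were highest on *aptf-1* replicate 1. *C03B8.5* measured -3.05, -4.68, -4.82 and -4.01 on the *aptf-1* arrays and -1.95, -5.17, -3.69 and -7.23 on the N2 arrays. *F07E5.10* measured -1.98, -4.10, -4.10 and -3.24 on the *aptf-1* arrays and -1.19, -2.92, -2.22 and -6.22 on the N2 arrays. In both, the N2 arrays spanned the mutant values. The gene table lists *C03B8.5* as a small nucleolar RNA and *F07E5.10* as a pseudogene. *spig-4* and *spig-5*, 2 members among 22 *spig* probes, were not highest on *aptf-1* replicate 1. *spig-4* measured -7.10, -6.36, -6.12 and -5.90 on the *aptf-1* arrays and -3.42, -3.59, -5.16 and -6.40 on the N2 arrays, so that *aptf-1* replicate 1 was the lowest mutant array. *spig-5* hardly varied among mutants, between -6.63 and -6.13. NP014712, an unmatched name, was also an exception, with -7.05, -4.95, -4.27 and -7.18 on the *aptf-1* arrays and -4.43, -5.54, -6.78 and -7.50 on the N2 arrays.

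Over the whole order, 94.5% of the 110 members were highest on *aptf-1* replicate 1. Of the 9076 other probes with the same N2 order, 57.2% were highest on *aptf-1* replicate 1. Both replicate 1 arrays came from slide 1, as did *aptf-1* replicate 2, the lowest mutant array for 55 of the 110 (30.0% of all probes). *aptf-1* replicate 3, on slide 2, was the lowest for 51 of the 110 (28.7% of all probes). In the deposited table these counts were 49 for replicate 2 and 56 for replicate 3. The median deviation on replicate 1 was 0.96 in *aptf-1* and 1.91 in N2 for the 69 probes of the first class, and 0.72 in *aptf-1* and 1.69 in N2 for the 41 probes of the other.

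The 32 probes with N2 replicate 3 high formed a different group, all matched to genes (27 in all). Adaptors of ubiquitin ligases and genes of the *sdz*, *vet* and *pes* families made up most of its named genes: *skr-7*, *skr-8*, *skr-9*, *skr-10* and *skr-15*; *btb-6*, *btb-10* and *btb-11*; *fbxb-10*, *fbxb-83*, *fbxc-18* and *fbxc-25*; and *sdz-4*, *sdz-28*, *sdz-30*, *vet-6* and *pes-2.1*. The group's median deviation on the *aptf-1* arrays was 0.26, -0.18, -0.50 and 0.11. On the N2 arrays it was -0.11, -1.31, 2.49 and -1.20. The class was made by its high values on N2 replicate 3, so the 2.49 there follows from the choice.

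*pes-2.1*, named for a patterned expression site, measured -3.07, -3.61, -3.60 and -2.23 on the *aptf-1* arrays and -1.78, -5.04, 0.01 and -5.13 on the N2 arrays. Both the highest and the lowest levels were on N2 arrays. *skr-8* measured -2.21, -2.80, -3.12 and -2.30 on the *aptf-1* arrays and -1.22, -3.98, 0.21 and -4.94 on the N2 arrays. The arrays had the same order for *skr-10*, with -1.97, -2.72, -3.07 and -2.16 on the *aptf-1* arrays and -1.13, -3.49, 0.31 and -4.18 on the N2 arrays. All mutant values of both genes lay inside the span of the N2 values.

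*skr-15* had 5 member probes, and the highest-ranked one measured -5.18, -5.62, -5.97 and -4.22 on the *aptf-1* arrays, with replicate 4 the highest. Its 5 probes agreed among wild-type samples: on N2 replicate 3 they lay between -2.63 and -2.44, and on N2 replicate 2 between -7.69 and -6.84. *vet-6* measured -6.28, -7.21, -6.86 and -6.35 on the *aptf-1* arrays and -7.70, -7.82, -3.13 and -6.99 on the N2 arrays, where replicate 3 alone was high. *sdz-28* measured -5.15, -5.59, -6.35 and -5.56 on the *aptf-1* arrays and -5.74, -7.31, -2.72 and -6.51 on the N2 arrays. *sepa-1*, whose product is a P granule component removed by autophagy in embryos, measured -4.51, -5.76, -5.93 and -5.24 on the *aptf-1* arrays and -6.55, -7.01, -2.52 and -6.30 on the N2 arrays. *skr-7* measured -2.27, -3.29, -3.80 and -3.10 on the *aptf-1* arrays and -4.05, -4.58, -0.32 and -4.93 on the N2 arrays.

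Over the *aptf-1* arrays, these 32 probes had a median SD of 0.52, and 18 of them (56.3%) were above the 95th percentile of all probes. *aptf-1* replicate 3 was the lowest mutant array for 23 of the 32 (28.7% of all probes), and *aptf-1* replicate 1 the highest for 20 on the main scale and 15 in the deposited table. *sdz-4* (SD 0.13 over *aptf-1*), *btb-6* (0.13) and *fbxc-25* (0.18) hardly varied among mutants. *fbxb-83*, an F-box gene, varied most of the group, with -6.96, -7.34, -6.38 and -5.03 on the *aptf-1* arrays and -5.74, -7.36, -4.53 and -7.37 on the N2 arrays.

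Most other probes of these families were not members. Of 32 *skr* probes that could have been chosen, 9 were members, and the 32 had a median SD of 0.14 over *aptf-1* and 0.22 over N2. The members were 5 of 36 probes for *sdz*, *vet* and *pes* genes, 3 of 22 for *btb* genes and 5 of 123 for *fbxb* and *fbxc* genes. The 149 tested *fbxb* and *fbxc* probes had median deviations of 0.05, -0.16, 0.01 and 0.08 on the *aptf-1* arrays and 0.09, -0.29, 0.43 and -0.26 on the N2 arrays, so that N2 replicate 3 was the highest, also under each other scaling, though with normexp only by 0.16 against 0.15 on N2 replicate 1. The medians of the *sdz*, *vet* and *pes* list (0.18) and of the *btb* list (0.15) were also highest on N2 replicate 3, except with normexp, where N2 replicate 1 was the highest at 0.11 and 0.09. These family lists were drawn up after the members were seen.

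The 46 probes with N2 replicate 4 high were the most mixed. Its first members had the widest N2 spread of the 200. *T11F8.4* measured -5.40, -3.04, -3.16 and -3.55 on the *aptf-1* arrays and -5.51, -2.96, -5.39 and 2.44 on the N2 arrays. AF071395, an unmatched name with 5 agreeing probes, measured -0.59, 0.48, 0.58 and 0.55 on the *aptf-1* arrays and -2.73, 0.47, -0.93 and 5.96 on the N2 arrays. In both, N2 replicate 4 was far above all other arrays, and *aptf-1* replicate 1 was the lowest mutant array.

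BJ148452 had 1 member among the 2 probes that could be chosen, with -1.86, -0.46, -0.30 and -0.77 on the *aptf-1* arrays and -2.77, -0.55, -1.79 and 4.30 on the N2 arrays. Its other probe was highest on N2 replicate 1 (-5.83) and lowest on N2 replicate 4 (-7.31). *klf-1*, a Krüppel-like transcription factor gene, measured -3.89, -3.19, -2.74 and -3.31 on the *aptf-1* arrays and -3.97, -3.19, -3.59 and 0.59 on the N2 arrays. *ugt-50*, encoding a UDP-glucuronosyltransferase, had 1 member among its 2 probes, nearly constant outside N2 replicate 4, with -0.88, -1.03, -1.13 and -0.88 on the *aptf-1* arrays and -0.94, -0.64, -0.92 and 1.90 on the N2 arrays. The other *ugt-50* probe measured -4.35 on N2 replicate 4 and had an N2 SD of 0.17, so the high value was that of 1 probe. *oma-1* encodes a zinc finger protein of oocyte maturation that is degraded in the first cell divisions. It measured -2.28, -4.17, -4.63 and -2.93 on the *aptf-1* arrays and -4.49, -1.78, -3.78 and -0.63 on the N2 arrays, so it varied in both genotypes and in different orders. *irg-2*, an infection response gene, measured -6.29, -6.47, -5.40 and -4.84 on the *aptf-1* arrays and -6.43, -5.26, -5.57 and -2.18 on the N2 arrays.

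Some of this class rested on marked spots. The scanner software marked an outlier spot on an *aptf-1* array for 0 members. It marked one on an N2 array for 12 members (6.0%), all on replicate 4, against 0.997% of all probes. With these spots left out, the 12 had a median N2 SD of 0.16, and with the spots kept it was 1.63. *irld-67* measured -4.79, -4.75, -4.55 and -4.71 on the *aptf-1* arrays and -4.76, -4.64 and -4.86 on N2 replicates 1 to 3, and its marked spot on N2 replicate 4 read 1.99. *pup-2*, a poly(U) polymerase gene, had SDs of 0.19 over *aptf-1* and 0.16 over N2 without the marked spot at its highest-ranked probe. The exception was *tbx-41*, a T-box gene low on N2 replicate 3, whose N2 SD was still 1.32 with the marked value of replicate 4 left out.

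The 35 probes of the class with no marked spot had a median *aptf-1* SD of 0.56, and 25 of them were highest on *aptf-1* replicate 3 and 21 lowest on *aptf-1* replicate 1. Over all probes the shares were 25.4% for highest on *aptf-1* replicate 3 and 29.5% for lowest on *aptf-1* replicate 1. Of members highest on N2 replicate 4 with all values present, 70.0% were highest on *aptf-1* replicate 3, against 22.3% of other probes highest on N2 replicate 4. These arrays lay on the same slide, as did *aptf-1* replicate 4, the highest mutant array for 4 of the 35 probes and for 13.7% of all probes.

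A few members varied as much among mutants as among wild-type samples. *ZC376.8* had the highest *aptf-1* SD of the list, 2.03, with -1.19, -4.44, -5.61 and -2.16 on the *aptf-1* arrays and -3.96, -0.91, -2.56 and 0.04 on the N2 arrays. *suex-1* (SD 1.96) measured -3.12, -6.90, -5.86 and -7.57 on the *aptf-1* arrays and -7.16, -4.42, -3.72 and -6.38 on the N2 arrays. The genotypes overlapped in both genes. The member probes of *ZK1025.3* and *ZK1025.2* were low on 1 array of each genotype. *ZK1025.3* measured -2.09, -1.22, -0.94 and -5.24 on the *aptf-1* arrays and -4.73, -2.95, -7.37 and -2.28 on the N2 arrays. *ZK1025.2* measured -0.97, -0.31, -0.50 and -3.75 on the *aptf-1* arrays and -1.59, -1.68, -4.26 and -1.53 on the N2 arrays, and its 3 other probes, with N2 SDs between 0.42 and 0.57, were all lowest on *aptf-1* replicate 2 among the mutants. The unmatched TC133899 had the same low arrays, with -3.08, -2.21, -2.20 and -5.0 on the *aptf-1* arrays and -3.54, -3.20, -5.64 and -2.74 on the N2 arrays. *aptf-1* replicate 4 and N2 replicate 3, both on slide 2, were thus the low arrays for the member probes of all 3 names.

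The deviations of mutant and wild-type arrays were then set against each other over the 200 members, as a description across probes that share arrays and are not independent. Deviations were taken from the mean of each genotype, so the correlations with its arrays are tied to each other. The values for N2 replicates 1 and 4 are thus not separate results. Deviations of *aptf-1* replicate 1 correlated with those of N2 replicate 1 (Pearson's r = 0.68, n = 200 probes) and against those of N2 replicate 4 (-0.67). *aptf-1* replicate 3 went with N2 replicate 4 (0.55) and against N2 replicates 1 (-0.48) and 3 (-0.40). *aptf-1* replicate 2 also went with N2 replicate 4 (0.40) and against N2 replicate 1 (-0.44), and *aptf-1* replicate 4 had no correlation beyond -0.37, with N2 replicate 2. The other pairs over the members lay between -0.14 and 0.32. Over all 32299 probes the correlation of both replicates 1 was 0.56, and that of *aptf-1* replicate 3 with N2 replicate 4 was 0.09.

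Same-numbered arrays had a mean correlation of 0.11 over the members, which rested on replicate 1: without it the mean was -0.24. Arrays of the same slide had a mean correlation 0.20 higher than arrays of different slides. This difference was -0.10 without replicate 4 and 0.56 without replicate 2, so 1 array of each genotype decided it.

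The question whether members differed by slide among mutants was tested on the 4 *aptf-1* arrays alone. Of 35629 probes, limma with Benjamini-Hochberg adjustment called 0 (0% of all probes) at an adjusted p under 0.05, and 0 of 200 members. At an unadjusted p under 0.05 there were 11 members and 619 probes. *irg-2* had the lowest p of the members, with a log2 difference of 1.26 for slide 2 minus slide 1 (standard error 0.25, adjusted p = 1 from limma). *Y71A12B.11* followed, with -1.29 (standard error 0.27, adjusted p = 1 from limma). It measured -5.23 and -4.75 on slide 2 and -3.45 and -3.95 on slide 1 among the mutants. *sdz-30*, TC146955, *T05D4.2*, the T-box gene *tbx-43*, *cat-4* (GTP cyclohydrolase of dopamine and serotonin synthesis), *F43C1.7*, *fbxb-83* and *wee-1.2* (a pseudogene in the gene table) were the next 8, with differences between -1.07 and 1.51. The *cat-4* member probe was dim, with a mean level of -6.54, and those of *wee-1.2* (-6.36), *F43C1.7* (-6.34) and *fbxb-83* (-6.34) were nearly as dim. The other *cat-4* probe that could be chosen measured 0.83, 0.68, 0.57 and 0.86 on the *aptf-1* arrays (SD 0.14). With 2 arrays per slide, large differences can be missed.

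Between genotypes, limma called 0 of 200 members and 18 of 35721 probes (0.0504% of all probes), where a call required a fold of at least 1.5 and an adjusted p under 0.05. At an unadjusted p under 0.05 there were 3 members and 1064 probes. The members were chosen for a wide N2 spread, which widens the error of this comparison, so the count says little about them. The 3 were *spig-4*, with a log2 difference of -1.72 for *aptf-1* minus N2 (standard error 0.63), *C18D11.6*, with -1.67 (standard error 0.73), and *spig-5*, with -1.50 (standard error 0.60). *C18D11.6* measured -7.11, -7.24, -4.61 and -6.59 on the *aptf-1* arrays and -6.01, -3.01, -4.83 and -5.01 on the N2 arrays, which overlap. In 0 of 188 members with all values present did the genotypes not overlap, against 2.04% of all probes. The wide N2 spread also favours overlap, so this share says little about the members. The median log2 difference of the members was 0.08, and that over all probes was -0.01.

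Lists of genes that change with stage or cell type were described in the same way. Members made up 0.619% of the probes that could be chosen, so a count of 0 in a short list says little. Cuticle collagens, which are made in bursts before each cuticle, had mostly been dropped by name from the choice. Their 259 tested probes had median deviations between -0.09 and 0.10 over the *aptf-1* arrays and between -0.03 and 0.03 over the N2 arrays, and their mean level ran from 0.53 to 1.06 in *aptf-1* and from 0.55 to 0.77 in N2. Hatching and larval digestion genes (36 probes) had median deviations between -0.09 and 0.20 on the *aptf-1* arrays and between -0.09 and 0.06 on the N2 arrays, and 0 were members. The 18 tested probes for early embryo regulators such as *oma-1* had median deviations between -0.004 and 0.03 on the *aptf-1* arrays. On the N2 arrays these medians were -0.16, 0.03, -0.08 and 0.10, highest on replicate 4, unlike the *sdz*, *vet* and *pes* list. Of the 15 probes of this list that could be chosen, 1 was a member. Sperm genes, among them the major sperm proteins, had median deviations between -0.06 and 0.12 on the *aptf-1* arrays and between -0.36 and 0.28 on the N2 arrays, with 0 members of 78 probes.

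No member came from the lists for intestine (31 probes), body wall muscle (52), pharynx (29), neurons (35), epidermis (15), germline (15), oocyte and eggshell (15), apical matrix and cuticlin (79), C-type lectins and lysozymes (241), intracellular pathogen response (44), stress and metal response (17) or chemoreceptors (757). Yolk protein genes had been dropped by name. The detoxification list held 1 member of 245 probes, *ugt-50*, and the list of F-box and MATH-BTB genes held 8 of 448.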

How the data were processed

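The authors deposited the scanner output of Agilent Feature Extraction, with a background-corrected intensity for each of 45220 spots per array and marks for outlier and well-above-background spots, and a table of log2 values whose columns share 1 distribution. The deposited log2 table was used for choosing members and as an alternative. For all other values, 1417 control spots and the outlier spots (62 to 188 per array) were left out, and log2 intensity minus the 75th percentile of the array was averaged over the spots of a probe. No spot was saturated, and the number of arrays limits the precision. Names came from the array design and, for 34268 of 43603 probes, from a gene table of the WBcel235 assembly, used for names and gene order only.

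Tests used limma 3.58.1 (R 4.3.3) on probes above background on 4 or more arrays, with Benjamini-Hochberg adjustment over all probes tested, and the fits were checked on simulated data. The 1.5-fold threshold is that of the study's methods. The replicates are separate samples per the methods. The members, gene lists and tests were chosen with earlier results of these data known, and the lists for ribosomal RNA, *skr*, *btb*, *fbxb* with *fbxc*, *sdz* with *vet* and *pes*, and *spig* genes after the members were seen. Genes were named by a rule: the 25 names with the highest N2 SD, the first 3 of each class, the 10 lowest p-values of the slide test, the 10 highest *aptf-1* SDs, and members of the gene lists. The names BJ784776 and BJ145909 and those in the paragraph on gene order were chosen after their values were seen. Alternatives were other scalings, background correction by normexp with an offset of 50, other filters, blocks by slide or replicate number, array weights, 1 probe per gene, arrays left out, and other rules for the members.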

Additional observations from a re-analysis of the deposited data

Results flagged for a closer look

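For the genes named above and for 3 quality measures of the arrays, 117 groups of 4 arrays were examined for a single array apart from the other 3, by the gap to its neighbour over the whole range (Dixon's rule). Chance marks about 1 in 20 groups, and 11 were marked, 10 of them in N2, where most genes had been chosen for their spread. Among mutants, *aptf-1* replicate 1 was low for AF071395 (0.916). N2 replicate 4 was low for *rrn-1.1* (0.854) and *rrn-3.1* (0.899), and high for *klf-1* (0.8291) and *ugt-50* (0.893). N2 replicate 3 was high for *sepa-1* (0.842), *fbxb-10* (0.874), *fbxc-18* (0.833) and *fbxc-25* (0.849), and low for *ZK1025.2* (0.946). The share of probes well above background was low on N2 replicate 2, at 79.4% (0.976).

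In 3 genes the arrays of the slides were ordered oppositely in the genotypes, with no overlap between slides in either. For *T05D4.2*, slide 2 minus slide 1 was -0.78 in *aptf-1* and 2.02 in N2. For *spig-4* it was 0.72 in *aptf-1* and -2.28 in N2, and for *spig-5* it was 0.40 in *aptf-1* and -2.23 in N2. The difference between genotypes was not tested, and the N2 values had chosen the genes.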

How the results depend on the processing

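Under every alternative run, 0 members were called by slide among mutants or between genotypes. The fit with the replicate number as a block called 6 probes between genotypes and 0 members. The labels do not say what a shared number marks, and the samples were not treated as pairs. Over all probes the same-numbered correlations were 0.56, 0.29, -0.06 and 0.15: *aptf-1* replicates 1, 2 and 4 correlated best with their own number (replicate 4 by 0.147 against 0.143), and replicate 3 with N2 replicate 2 (0.19). The count of 18 probes called between genotypes lay between 4 and 14 with 1 array left out, and was 11 with the slide block and 40 with array weights. The members' median *aptf-1* SD (0.61) lay between 0.31 and 0.69 with 1 mutant array left out, and between 0.48 and 0.60 under other scalings that changed it. The percent of members above the 95th percentile (70.5) lay between 36.5 and 71.0 with 1 mutant array left out. It was 55.3 over members matched to a gene other than ribosomal RNA, 73.5 for members chosen again without N2 replicate 4 and 68.0 without N2 replicate 3, settings chosen after seeing the data. The mean correlation of same-numbered arrays (0.11) was -0.040 over members matched to a gene other than ribosomal RNA, a setting chosen after seeing the data, and lay between -0.24 and 0.36 with 1 replicate number left out. The excess of same-slide correlations (0.20) lay between -0.10 and 0.56. Of the 200 members, 176 were chosen again from the scanner intensities, 188 without marked spots, 124 with SDs ranked within 20 bins of level, and 123 to 192 with 1 N2 array left out, the fewest without N2 replicate 4. The cause was not tested. For 57 named genes, 461 of 513 recomputed *aptf-1* SDs stayed within 1.5 times the value given, and the other 52 were smaller, 24 of them without *aptf-1* replicate 1 and 15 with normexp. Without *aptf-1* replicate 1 the SD of *T11F8.4* was 0.267 against 1.097, and that of AF071395 was 0.05 against 0.57.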

Other observations

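Some members are near neighbours in the gene order of the WBcel235 table. Of the 80 genes, 10 pairs had at most 5 genes between them, and in 7 pairs both genes were of the same class. Among genes high on N2 replicate 3, *sdz-30* and *sepa-1* had 1 gene between them, *B0281.5* and *fbxc-25* also 1, and *skr-8* and *skr-9* as well as *fbxc-18* and *sdz-4* had 3. *spig-4* and *spig-5* had 2 genes between them, and *F46B3.22* and *F46B3.8*, high on N2 replicate 4, had 0. *skr-7* and *Y47D7A.11*, with 3 genes between them, were of different classes, high on N2 replicate 3 and on N2 replicate 4. The remaining 3 pairs were those of the ribosomal RNA genes. Whether neighbours are more frequent than among other genes was not tested.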
